A study of Mus musculus with 6 samples.

Results

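The activated endothelium genes are 10 mouse genes, Vwf, Ctla2a, Angpt2, Apold1, Lrg1, Sele, Selp, Icam1, Vcam1 and Ackr1, of 54532 Ensembl genes in the tables. They were chosen by name with their fold changes between dermatitis and control cords already known, so their differences between those groups are given as description, and no p-value of a member is used. RNA came from the whole cervical spinal cord, in 6 libraries of C57BL/6 mice. The 3 ACD mice had allergic contact dermatitis from squaric acid dibutylester (SADBE), a contact allergen, at 1% in 20 µl of acetone, painted on the shaved abdomen on 3 days and, after 5 days, on the shaved nape on 3 more. The 3 control mice received acetone alone at the nape challenge, and the labels do not make clear whether their abdomen had been sensitised too. The sources used here give neither age nor sex, and each library, described as a biological replicate, was taken as 1 mouse.

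When cytokines or mediators reach a vessel wall, its endothelial cells change what they display and release. Stored granules, the Weibel-Palade bodies, hold the clotting protein Vwf together with the adhesion molecule P-selectin and angiopoietin-2 and empty within minutes, while E-selectin, Icam1 and Vcam1 are made anew. Selectins make passing leukocytes roll, Icam1 and Vcam1 hold them by their integrins, and Ackr1 of venules moves chemokines across the wall. In brain and spinal cord these molecules are kept low at rest, and their appearance on venules precedes leukocyte entry.

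A level is given in FPKM, a fragment count divided by exon length and library size. A log2 difference is the ACD mean less the control mean after 0.1 was added to each FPKM and log2 taken, with its standard error (SE) from a limma fit across all genes. That scale understates the change of low genes. The depth behind the FPKM was 17346315 to 20245576 reads in ACD and 16916600 to 18583992 in control libraries. Fewer genes were above 0 in ACD libraries, 23511 to 24194, than in control libraries, 24982 to 25870. The mitochondrial mt-Atp6 was at 510, 486 and 500 FPKM in ACD and 160, 102 and 84.1 FPKM in control libraries. Both measures split the libraries as the members do, and their part in the results was not tested. Markers of the tissue were present: the neuronal gene Snap25 was at 380 ± 1.34 in ACD and 352 ± 25.9 FPKM in control cords (SD, n = 3 each, as for every ± given), the motor neuron gene Chat at 5.77 ± 1.24 in ACD and 6.22 ± 1.54 in control cords, and the cervical Hox gene Hoxa5 at 29.9 ± 6.61 in ACD and 27.0 ± 5.68 in control cords. Mbp of myelin, the most abundant of these 12 markers, was at 3030 ± 297 in ACD and 2396 ± 497 in control cords. None of the 12 passed in limma, and 1 was higher at an unadjusted p under 0.05. None of 11 passed with voom, which did not cover Mbp.

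The level of 5 members, Vwf, Ctla2a, Angpt2, Apold1 and Lrg1, was 2.31 to 3.51 times higher on average in ACD than in control cords. In whole cord, more cells of a type and more RNA per cell cannot be told apart. Vcam1 was 1.41 times higher. Icam1 overlapped between the groups, Ackr1, whose exons partly overlap those of Cadm3, was level, and both selectins were at or near 0. Of the 10 members, 8 reached the average of 0.1 FPKM that the fit required, and Sele and Selp did not. In 6 of the 8 every ACD value lay above every control value, which held for 13.1% of the 21369 genes tested. The threshold used for all genes, an adjusted p under 0.05, was passed by 4 members (Vwf, Ctla2a, Angpt2 and Apold1, but not Lrg1, Icam1, Vcam1 or Ackr1), against 1.81% of genes tested that were higher and 2.53% that were lower. Since the members were picked on this contrast, nothing is read from these shares.

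**Figure D1:**
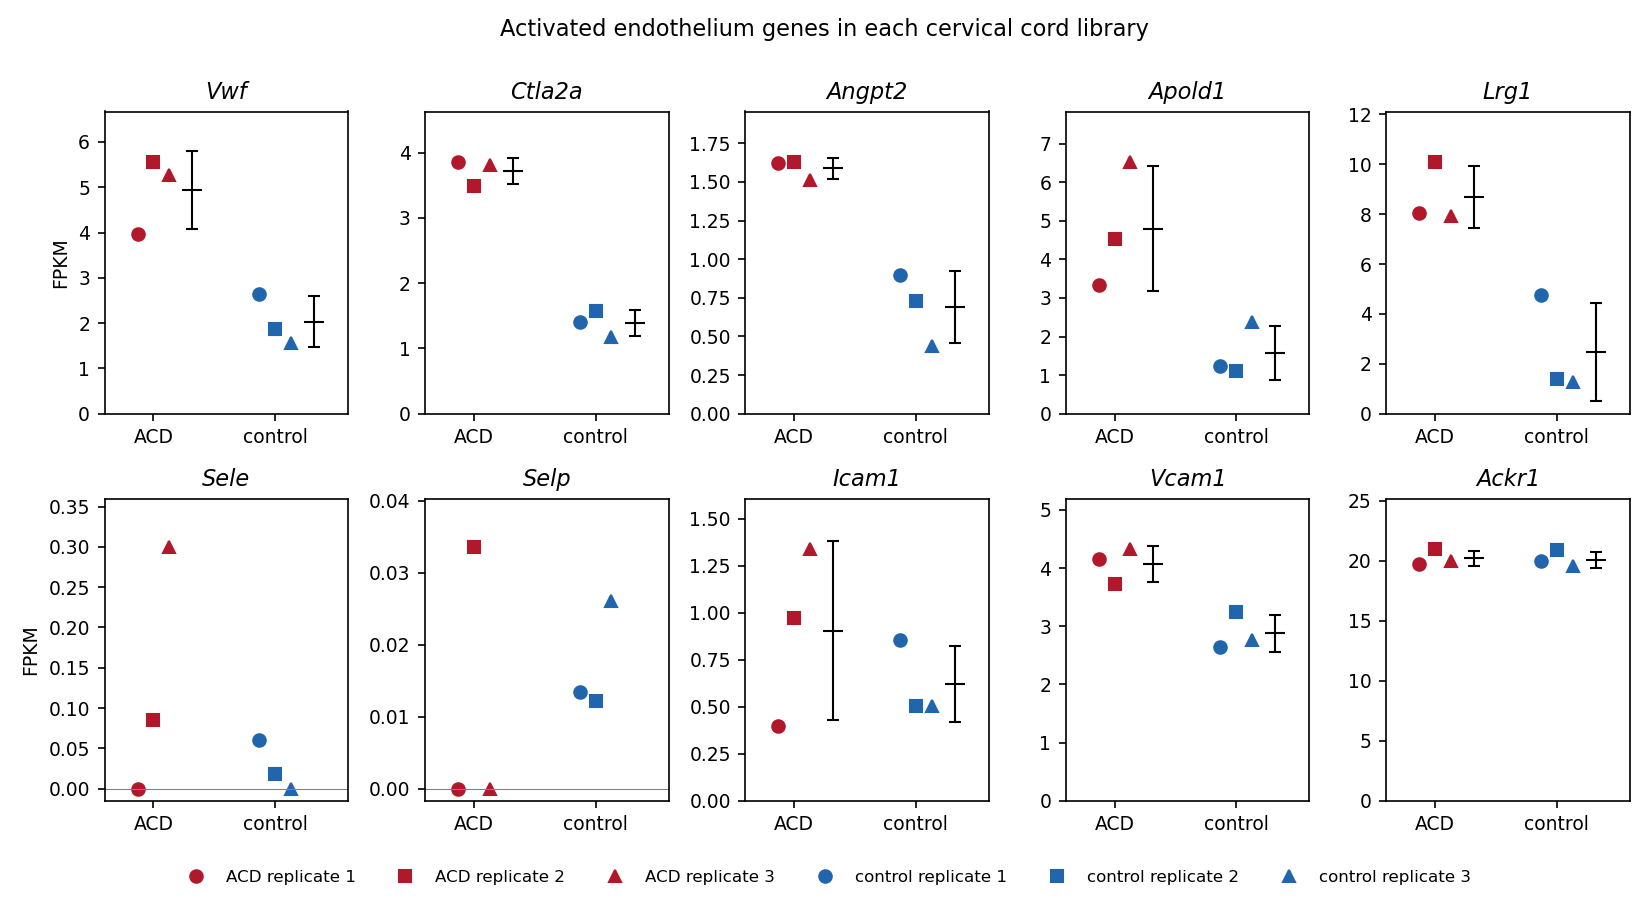
FPKM (y axes, linear, a scale of their own in each panel) of the 10 members in the 3 ACD (red) and 3 control (blue) libraries, with the replicate shown by the marker and the mean and SD in black, left out for Sele and Selp. Vwf, Ctla2a, Angpt2, Apold1, Lrg1 and Vcam1 separate the groups, Icam1 and Ackr1 do not, and Sele and Selp stay at or below 0.3 FPKM.

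The first group of members is made and stored by endothelium. Vwf, the multimeric protein that tethers platelets, lies on chromosome 6 at 125546774 to 125686679 on the plus strand (mm10). It was at 3.97, 5.56 and 5.28 FPKM in ACD cords 1 to 3, against 2.65, 1.87 and 1.57 FPKM in control cords 1 to 3. The lowest ACD cord stood above the highest control. The mean was 4.94 ± 0.852 in ACD and 2.03 ± 0.558 in control cords (SD, n = 3 each), a log2 difference of 1.26 (SE 0.21). These values rested on 4465 reads over the ACD and 1718 over the control libraries, the most of any member.

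Angpt2, the angiopoietin that endothelial cells release to block the Tek receptor and loosen the vessel wall, lies on chromosome 8 at 18690263 to 18741562 on the minus strand, inside the span of Mcph1 on the other strand. It was at 1.62, 1.63 and 1.51 FPKM in the 3 ACD cords, against 0.897, 0.729 and 0.438 FPKM in the controls. The ACD cords were close together, with a coefficient of variation of 4.29% in ACD and 33.8% in control cords. The log2 difference was 1.15 (SE 0.24), and 0.63 with a pseudocount of 1. Selp, P-selectin, shares the granules with Vwf in textbook endothelium but had 0, 3 and 0 reads in the ACD libraries and 1, 1 and 2 reads in the controls. A limit of 3 reads stands for 0.0336 to 0.0392 FPKM in the ACD and 0.0366 to 0.0402 FPKM in the control libraries. No difference of Selp was detected, and a small one could not be resolved at this depth.

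The second group holds Ctla2a, Apold1 and Lrg1, which mark endothelium under stress or remodelling. Ctla2a, a small protein related to the propeptide of cysteine cathepsins, varied least within groups among the 5 members with the larger differences, with an SD of 0.15 on the log2 scale. It was at 3.86, 3.49 and 3.81 FPKM in ACD cords, against 1.40, 1.58 and 1.18 FPKM in control cords. The mean of 3.72 ± 0.199 in ACD cords stood against 1.39 ± 0.204 in controls (SD, n = 3 each; log2 difference 1.37, SE 0.13). It lies on chromosome 13 at 60934155 to 60936625, and 25.5% of its 50-base words also occur in other genes, among them its neighbour Ctla2b. Ctla2b had 1 read in every library but control 3, which had 0. The read-through model Gm49391, which covers 16.3% of the Ctla2a exon length, was listed at 0 in all 6 libraries. How reads of these copies were shared out before deposit is unstated in the sources used here, so the level of Ctla2a is uncertain to that extent.

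Apold1, an apolipoprotein-like gene that endothelium switches on early after a stimulus, lies on chromosome 6 at 134981718 to 134986836. It was at 3.33, 4.54 and 6.53 FPKM in ACD cords, against 1.23, 1.10 and 2.38 FPKM in controls. ACD 3 and control 3 were the high libraries of their groups, and the groups did not overlap. The log2 difference was 1.58 (SE 0.33), with within-group coefficients of variation of 33.6% in ACD and 44.8% in control cords. Lrg1, a secreted leucine-rich glycoprotein that changes TGF-beta signalling in vessels and that neutrophils and liver also make, lies on chromosome 17 at 56119678 to 56122001. It was at 8.03, 10.1 and 7.92 FPKM in ACD cords, against 4.74, 1.41 and 1.27 FPKM in controls. Control 1 stood apart from the other controls yet below every ACD cord. The log2 difference of 2.02 (SE 0.46) was the largest of the members and became 2.60 without control 1.

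Windows of 250 bases before the RefSeq start on GRCm38.p6 were searched for 7 of the 10 members, all but Vwf, Angpt2 and Vcam1. Outside the gene's own GENCODE exons, 250 of those bases remained for Ctla2a, Sele, Selp and Icam1, 195 for Lrg1, 3 for Ackr1 and none for Apold1. They are shown 5′ to 3′ on the gene's strand for Ctla2a and Lrg1, which were higher in each ACD cord, and for Sele and Icam1, the adhesion genes best known for cytokine-driven promoters, whose groups overlapped. Both strands were searched for 6 motifs, and capitals mark the matches. They were NF-kB, the AP-1 letters TGANTCA, the STAT letters TTCNNNGAA, the letters GATAA that GATA-binding factors read, the TATAAA of a core promoter, and the GC box GGGCGG. The NF-kB pattern was strict and had to begin with GGG, so looser forms were not searched. The windows are chr13:60936626-60936875 and chr17:56122002-56122196 on the minus strand and chr1:164047984-164048233 and chr9:21015690-21015939 on the plus strand, and the Lrg1 sequence stops after 195 bases, where its GENCODE exon begins.
Ctla2a: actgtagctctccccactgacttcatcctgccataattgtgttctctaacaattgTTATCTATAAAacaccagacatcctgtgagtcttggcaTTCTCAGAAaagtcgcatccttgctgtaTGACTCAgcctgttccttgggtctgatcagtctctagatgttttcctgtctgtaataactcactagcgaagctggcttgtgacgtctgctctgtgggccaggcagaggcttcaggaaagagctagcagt
Lrg1: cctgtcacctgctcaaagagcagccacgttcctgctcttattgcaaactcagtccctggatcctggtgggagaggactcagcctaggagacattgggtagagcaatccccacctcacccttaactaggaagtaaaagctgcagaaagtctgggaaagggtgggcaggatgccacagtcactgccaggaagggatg
Sele: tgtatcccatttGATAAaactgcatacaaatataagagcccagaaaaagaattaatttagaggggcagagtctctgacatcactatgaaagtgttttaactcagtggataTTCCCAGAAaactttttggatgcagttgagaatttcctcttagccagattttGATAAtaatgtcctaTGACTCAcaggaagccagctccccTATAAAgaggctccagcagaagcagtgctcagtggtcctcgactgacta
Icam1: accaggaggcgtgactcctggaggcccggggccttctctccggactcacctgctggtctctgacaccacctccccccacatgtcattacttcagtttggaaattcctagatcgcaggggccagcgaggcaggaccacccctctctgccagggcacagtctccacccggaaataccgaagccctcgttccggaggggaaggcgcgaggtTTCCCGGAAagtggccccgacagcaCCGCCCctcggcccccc
Sele held a TATAAA 49 to 44 bases before its start, a TGANTCA match at 73 to 67, a TTCNNNGAA match at 140 to 132 and GATAA at 88 to 84 and 238 to 234. Ctla2a held the same 4 kinds of match, with TGANTCA at 129 to 123, TTCNNNGAA at 157 to 149, TATAAA at 190 to 185 and GATAA on the opposite strand directly beside it at 195 to 191. Icam1 held TTCNNNGAA at 42 to 34 and a GC box on the opposite strand at 17 to 12, and Lrg1 held no match. Of 32841 promoter windows of that length, 6.75% held TGANTCA, 7.02% TTCNNNGAA, 22.6% GATAA, 12.4% TATAAA, 32.7% the GC box and 7.25% the strict NF-kB letters. No member's window that was searched held these strict letters, and Vwf, Angpt2 and Vcam1 had no window. The Icam1 window holds ggaaattcc, which lacks the leading GGG and could not match, so absence of NF-kB sites is not shown. A match is a run of letters and was not tested as a binding site.

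The third group, the adhesion molecules, did not move as a block. Vcam1, the ligand of the integrin Itga4 with Itgb1, lies on chromosome 3 at 116109949 to 116129688. It was at 4.15, 3.73 and 4.33 FPKM in ACD cords, against 2.65, 3.25 and 2.76 FPKM in controls. The groups did not overlap, and the gap was narrow, with 3.73 in ACD 2 next to 3.25 in control 2. The means of 4.07 ± 0.311 in ACD and 2.88 ± 0.317 in control cords (SD, n = 3 each) gave a log2 difference of 0.48 (SE 0.11). Astrocytes also make Vcam1, and Gfap, the astrocyte filament gene, had the protein-coding profile most like it over the 6 libraries, with a root mean square difference of 0.027 on the centred log2 scale. Gfap itself was higher in ACD cords at 576 ± 38.5 against 413 ± 33.4 FPKM in controls (adjusted p = 0.0332). Genes near by this measure must have similar group differences, so the rise of Gfap follows from the match. Which cells the Vcam1 reads came from was not tested.

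Icam1, the ligand of the integrin of Itgal with Itgb2, lies on chromosome 9 at 21015985 to 21028817. It was at 0.397, 0.974 and 1.34 FPKM in ACD cords, against 0.854, 0.506 and 0.503 FPKM in controls. ACD 1 was the lowest of all 6 libraries and ACD 3 the highest. The 30 reads of ACD 1 (95% Poisson interval 20.2 to 42.8) and the 107 of ACD 3 (87.7 to 129) lay apart by more than counting error. The log2 difference of 0.38 (SE 0.41) was smaller than its error, and it was 0.82 without ACD 1 and 0.05 without ACD 3. Sele, E-selectin, which endothelium makes mainly when stimulated, had 0, 5 and 16 reads in ACD libraries and 3, 1 and 0 reads in the controls. The 16 reads of ACD 3 (interval 9.15 to 26.0, 0.300 FPKM) were the most of any library. Their interval overlapped that of the 5 reads of ACD 2 (1.62 to 11.7). ACD 1, with 0 reads and a limit of 0.0594 FPKM, did not differ from the controls beyond counting error. ACD 3 was thus the highest library for Sele, Icam1, Vcam1 and Apold1, and ACD 2 for Vwf, Lrg1, Angpt2 and Ackr1.

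**Figure D2:**
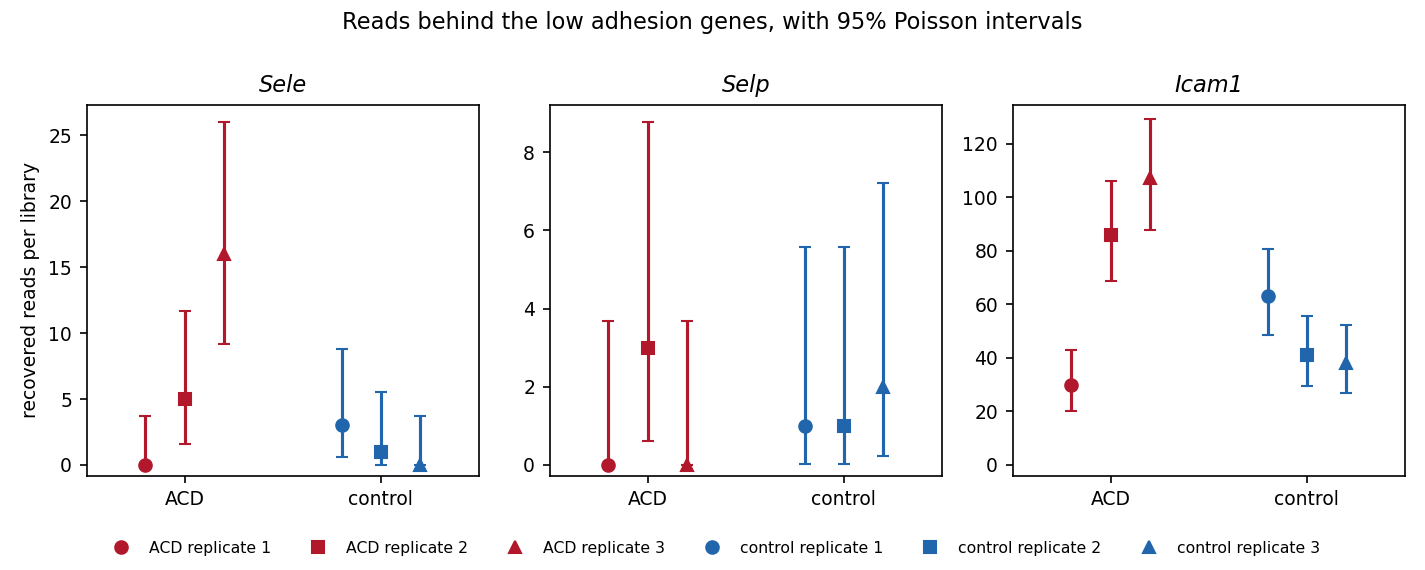
Recovered reads per library (y axes, linear) of Sele, Selp and Icam1 in the 3 ACD (red) and 3 control (blue) libraries, with 95% Poisson intervals as bars. ACD 3 is the highest library for Sele with 16 reads and for Icam1 with 107, ACD 1 holds 0 and 30, and Selp has at most 3 reads in any library.

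Ackr1, the atypical chemokine receptor of venules and red blood cells, lies on chromosome 1 at 173331886 to 173333750 on the minus strand. It was at 19.7, 21 and 20.0 FPKM in ACD cords, against 20.0, 20.9 and 19.6 FPKM in controls. The groups lay on top of each other, with coefficients of variation of 3.25% in ACD and 3.29% in control cords. The log2 difference was 0.01 (SE 0.06) and changed sign to -0.09 after TPM scaling. The exons of Cadm3, a cell adhesion gene of neurons, cover 361 bases or 25.7% of the Ackr1 exon length on the same strand, and Cadm3 averaged 45.5 FPKM in ACD and 44.6 FPKM in control cords. Reads of the Cadm3 end and of Ackr1 cannot be told apart in that stretch. The level of Ackr1, the highest of the members, and its lack of a difference are therefore both uncertain. How much of either came from Cadm3 was not tested.

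The order of levels in ACD cords, per length, was Ackr1, Lrg1, Vwf, Apold1, Vcam1, Ctla2a, Angpt2, Icam1, Sele and Selp. Vwf, Apold1, Vcam1 and Ctla2a overlapped as neighbours over their 3 libraries, while Lrg1 and Angpt2 were separate from theirs. In control cords Vcam1 came second, at 2.88 ± 0.317 FPKM, ahead of Lrg1 at 2.48 ± 1.97, Vwf at 2.03 ± 0.558, Apold1 at 1.57 ± 0.703 and Ctla2a at 1.39 ± 0.204 (SD, n = 3), whose ranges overlapped from neighbour to neighbour. Profiles over the 6 libraries were compared by the root mean square difference of centred log2 values among 12142 protein-coding genes averaging 1 FPKM or more. Nearness by this measure requires a similar group difference and does not show a shared cell or regulator. The genes nearest to Vwf were Ifitm3 (0.13), Ifitm2 (0.16) and Col3a1 (0.16), and those nearest to Ctla2a were Ifitm2 (0.18), Ifitm3 (0.21) and Serf2 (0.22). Id1 (0.10), Crh (0.13) and Mt2 (0.14) were nearest to Angpt2, and Junb (0.33), Lgals3bp (0.37) and mt-Co2 (0.38) to Apold1. For Lrg1 they were mt-Atp6 (0.36), Etfb (0.44) and Ch25h (0.45), for Vcam1 after Gfap, Tmsb10 (0.06) and Brk1 (0.06), and for Ackr1 the flat genes Ipo7 (0.01), Mindy3 (0.02) and Clec2l (0.02).

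**Figure D3:**
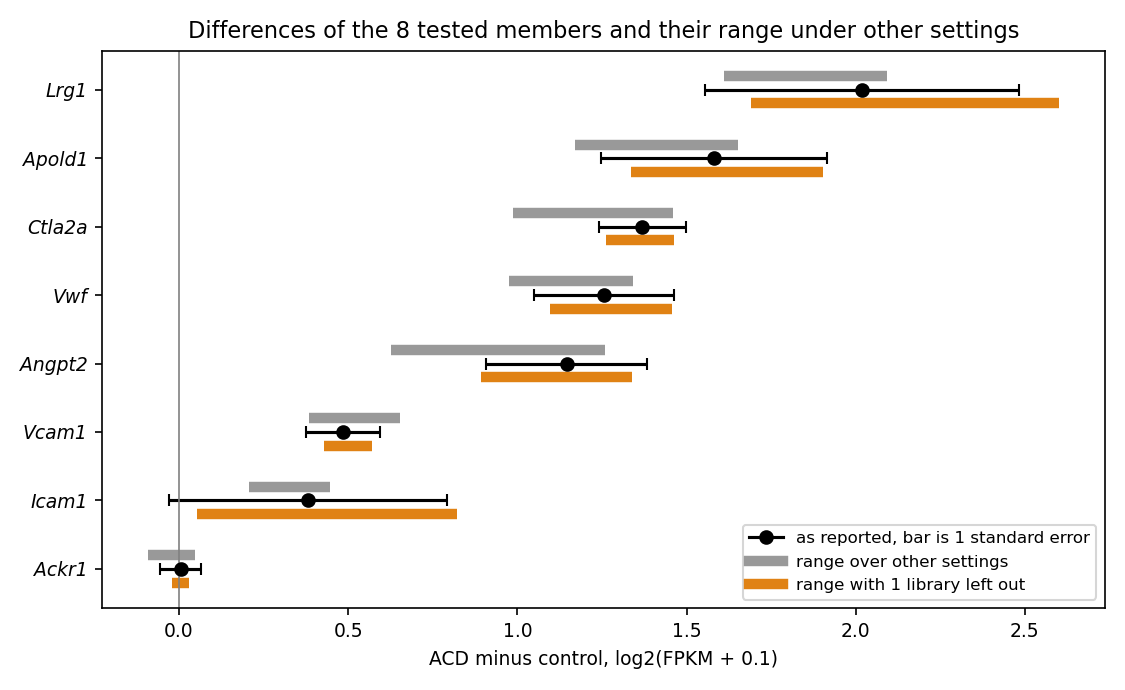
Log2 difference between ACD and control, with a pseudocount of 0.1 FPKM (x axis) for the 8 members the fit covered, with 1 standard error in black, the range over other settings in grey and the range with 1 library left out in orange. Lrg1, Apold1, Ctla2a, Vwf and Angpt2 lie at 1.15 or higher as reported and keep their sign throughout, Icam1 reaches down to 0.05, and Ackr1 lies on 0.

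The general markers of endothelium gave no call. None of 15 genes of all endothelial cells passed in limma over all genes, 1 was lower at an unadjusted p under 0.05, and none passed with voom. Their median log2 difference was -0.14, against -0.01 over all genes tested. Their summed level was 149, 101 and 132 FPKM in ACD cords and 129, 115 and 113 FPKM in controls. The Ly6c1 level, the highest of the list over all 6 libraries, was 37.0 ± 8.37 in ACD and 35.6 ± 6.12 in control cords (SD, n = 3 each), and the junction gene Cdh5 was at 4.76 ± 1.01 in ACD and 5.64 ± 1.96 in control cords (adjusted p of 0.906 for Ly6c1 and 0.680 for Cdh5). Cldn5, a tight junction gene, was at 40.2 ± 12.5 in ACD and 28.3 ± 1.45 in control cords (0.45, adjusted p = 0.285). Cldn5 and Ly6c1 made up most of the summed level in every library, and 4 of the 15 markers had a positive log2 difference. Set against that sum in each library, Vwf came to 2.66%, 5.5% and 4.0% in ACD cords and 2.05%, 1.64% and 1.39% in controls. Ctla2a came to 2.58%, 3.45% and 2.89% in ACD cords and 1.08%, 1.38% and 1.04% in controls. Vwf, Ctla2a, Angpt2, Apold1 and Lrg1 kept groups without overlap on this scale, at ratios of 2.24 to 3.55, while Vcam1 overlapped at 1.33.

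**Figure D4:**
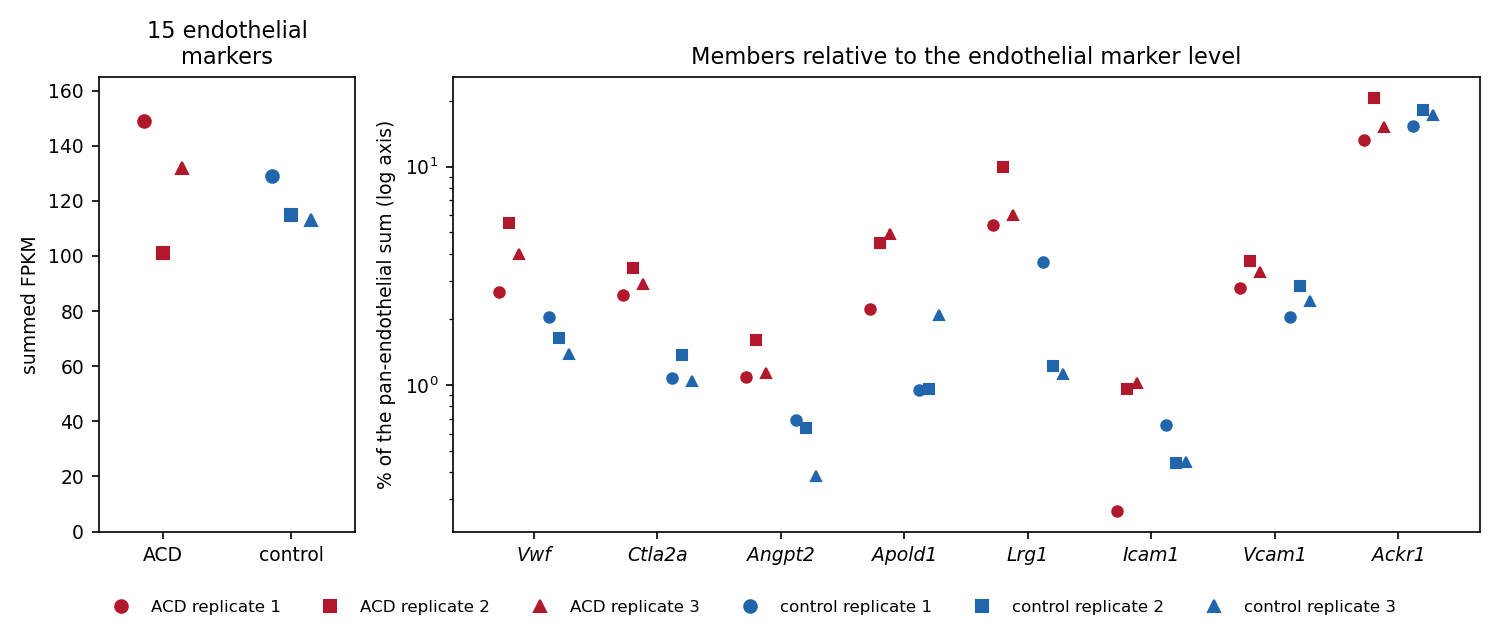
Summed FPKM of 15 endothelial markers (left, linear axis from 0) and each member as a percent of that sum (right, log axis) in the 3 ACD (red) and 3 control (blue) libraries. The marker sums overlap at 101 to 149 FPKM in ACD and 113 to 129 FPKM in control libraries, and Vwf, Ctla2a, Angpt2, Apold1 and Lrg1 remain apart between the groups relative to them.

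Of 15 markers of vessel segments 1 rose, Tmem252, a membrane protein of brain vessels, at 5.61 ± 1.05 FPKM in ACD and 2.80 ± 0.322 in control cords (log2 difference 0.96, SE 0.16, adjusted p = 0.0242). At an unadjusted p under 0.05, 5 of the 15 were higher and none lower. With voom, which did not cover Tmem252, 2 of 14 passed. The largest differences of the list, Lcn2 (2.25, adjusted p = 0.0655) and Il1r1 (1.17, adjusted p = 0.0649), did not pass in limma. The median was 0.07 and became -0.02 after TPM scaling. The venous amino acid transporter Slc38a5 was at 4.01 ± 0.576 in ACD and 2.50 ± 0.452 in control cords (0.67, adjusted p = 0.0620) and the venous regulator Nr2f2 at 1.67 ± 0.266 in ACD and 1.89 ± 0.445 in control cords (-0.16, adjusted p = 0.674). The arterial gene Gkn3 was at 2.04 ± 0.603 in ACD and 2.34 ± 0.863 in control cords (-0.17, adjusted p = 0.768).

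Among 140 tested genes of the pathways around the members, leaving out marker genes, 5 or 3.57% rose and none fell, against 1.81% of all genes tested that were higher. The lists were chosen with earlier results of these data known, so nothing is read from these shares. The 5 were Ptgs2, Il6ra, Junb, Ier2 and Ctsl. None of them passed without ACD 2 or without ACD 3, 11 genes rose when at least 10 mean reads were required, and 18 rose and 1 fell with voom. Ptgs2, the inducible prostaglandin synthase, was the 1 of 16 cytokine-induced genes that rose, at 1.17, 2.16 and 2.03 FPKM in ACD cords, against 0.439, 0.294 and 0.252 FPKM in controls (log2 difference 2.12, SE 0.28, adjusted p = 0.0150). Ch25h, a cholesterol hydroxylase of inflamed brain vessels, was at 2.46 ± 0.970 in ACD and 0.629 ± 0.420 in control cords (1.90, adjusted p = 0.0622). Chemokines of the same list were low, with Ccl2 at 0.158 ± 0.0314 in ACD and 0.270 ± 0.138 in control cords (adjusted p = 0.515) and Cxcl1 at 0.271 ± 0.184 in ACD and 0.0706 ± 0.0472 in control cords (adjusted p = 0.323). Nfkbia, the inhibitor that NF-kB induces, was at 21.5 ± 2.25 in ACD and 23.2 ± 6.34 in control cords (-0.08, adjusted p = 0.850).

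Of 16 tested cytokine, receptor and NF-kB genes upstream of activation, 1 rose, the interleukin-6 receptor Il6ra, at 1.55 ± 0.0473 FPKM in ACD and 0.860 ± 0.0706 in control cords (0.78, SE 0.13, adjusted p = 0.0274). The interleukin-1 receptor Il1r1, which brain endothelium carries, was at 2.85, 2.96 and 1.76 FPKM in ACD cords, against 1.51, 0.786 and 0.933 FPKM in controls (1.17, SE 0.28, adjusted p = 0.0649). The ligands Tnf, Il1b and Il6 were below the filter, at mean levels of 0.01, 0.078 and 0 FPKM in ACD and 0.0328, 0.0685 and 0.0295 FPKM in control cords. The NF-kB subunits Rela (0.11), Nfkb1 (-0.07) and Relb (0.07) did not pass, with adjusted p of 0.439, 0.742 and 0.865. At an unadjusted p under 0.05, 3 genes of this list were higher and 1 lower. With voom, 2 of 14 were higher and 1, Chuk, lower.

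Early response genes had the highest median of the pathway lists, 0.64, and 2 of 16 rose, Junb and Ier2. Junb, a subunit of the AP-1 factor, was at 7.67, 10 and 12.9 FPKM in ACD cords, against 4.73, 3.79 and 5.36 FPKM in controls (1.11, SE 0.20, adjusted p = 0.0334), with ACD 3 and control 3 the high libraries as for Apold1. Ier2 was at 6.19 ± 1.72 in ACD and 2.84 ± 0.460 in control cords (1.07, SE 0.21, adjusted p = 0.0394). Neither passed after TPM scaling. The flow-induced endothelial factor Klf2 was at 12.9 ± 3.03 in ACD and 7.74 ± 2.27 in control cords. Klf4, another such factor, was at 4.40 ± 0.732 in ACD and 2.70 ± 0.950 in control cords. Neither factor passed in limma (adjusted p of 0.149 for Klf2 and 0.132 for Klf4). At an unadjusted p under 0.05, 11 of the 16 were higher and none lower. With voom, 6 of 15 were higher, Klf4 among them, and none lower.

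Among the partners of the granule genes no gene passed. Of 15 tested genes of Weibel-Palade cargo and release none passed in limma, 4 were higher at an unadjusted p under 0.05 and 2 passed with voom, with a median of 0.24. Cd63, a granule membrane protein of many cells, was at 27.5 ± 0.670 FPKM in ACD and 21.3 ± 2.34 in control cords (0.37, adjusted p = 0.0634). The granule peptide Edn1 was at 1.79 ± 0.192 in ACD and 1.27 ± 0.150 in control cords (0.47, adjusted p = 0.115). Of 18 angiopoietin and VEGF genes none passed in limma or voom, 1 was lower at an unadjusted p under 0.05, and the median was 0.02, or -0.07 after TPM scaling. Angpt1, the ligand that Angpt2 opposes, was at 2.23 ± 0.280 in ACD and 2.22 ± 0.426 in control cords (adjusted p = 0.971), and their receptor Tek at 3.72 ± 0.923 in ACD and 4.78 ± 0.468 in control cords (-0.38, adjusted p = 0.251). Vegfb, the most abundant, was at 45.2 ± 1.76 in ACD and 45.1 ± 3.26 in control cords (adjusted p = 0.980).

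Of 14 tested leukocyte counter-receptors none passed in limma, 4 were higher at an unadjusted p under 0.05 and 3 passed with voom, with a median of 0.23. Selplg, the P-selectin ligand that microglia also carry, was at 8.24 ± 0.183 FPKM in ACD and 5.90 ± 0.917 in control cords (0.48, adjusted p = 0.0582). Itgb2, the integrin chain that binds Icam1, was at 3.39 ± 0.603 in ACD and 2.11 ± 0.246 in control cords (0.65, adjusted p = 0.0587). Itga4, which binds Vcam1, was at 0.468 ± 0.0405 in ACD and 0.649 ± 0.0510 in control cords (-0.40, adjusted p = 0.260), and the widespread Itgb1 at 40.1 ± 3.11 in ACD and 34.5 ± 2.88 in control cords (adjusted p = 0.210). Of 14 other adhesion and junction genes none passed in limma, 1 was higher at an unadjusted p under 0.05 and 1 passed with voom. Their median was 0.04, or -0.06 after TPM scaling, and the most abundant, Cd99l2, was at 34.2 ± 0.408 in ACD and 32.8 ± 2.18 in control cords (adjusted p = 0.609). Icam4, a neighbour of Icam1, was listed at 0 in all 6 libraries.

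Among 19 TGF-beta genes, the pathway of Lrg1, none passed in limma, 2 were higher and 2 lower at an unadjusted p under 0.05, and 1 passed with voom. The median was -0.03 and became 0.07 after the length and GC trend was removed. Id2, the most abundant, was at 46.9 ± 3.45 in ACD and 44.3 ± 3.8 in control cords (adjusted p = 0.633). Eng, the coreceptor through which Lrg1 acts, was at 6.67 ± 2.15 FPKM in ACD and 6.50 ± 1.18 in control cords, and Id1, a target that endothelium shows strongly, at 24.8, 24.0 and 22.8 FPKM in ACD cords, against 16.6, 11 and 7.36 FPKM in controls (1.10, SE 0.26, adjusted p = 0.0664). Of 15 genes of clotting and vessel tone none passed in limma or voom, and 2 were higher at an unadjusted p under 0.05. Tissue factor F3 was at 20.9 ± 4.55 in ACD and 21.2 ± 0.855 in control cords (adjusted p = 0.891). Of 9 tested genes, cathepsins and the cystatin gene Cst3, 1 rose, Ctsl, at 18.4 ± 0.175 in ACD and 14.6 ± 0.789 in control cords (0.34, SE 0.06, adjusted p = 0.0360), and not after TPM scaling. All 9 were positive, 4 were higher at an unadjusted p under 0.05, and 3 of 8 passed with voom.

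**Figure D5:**
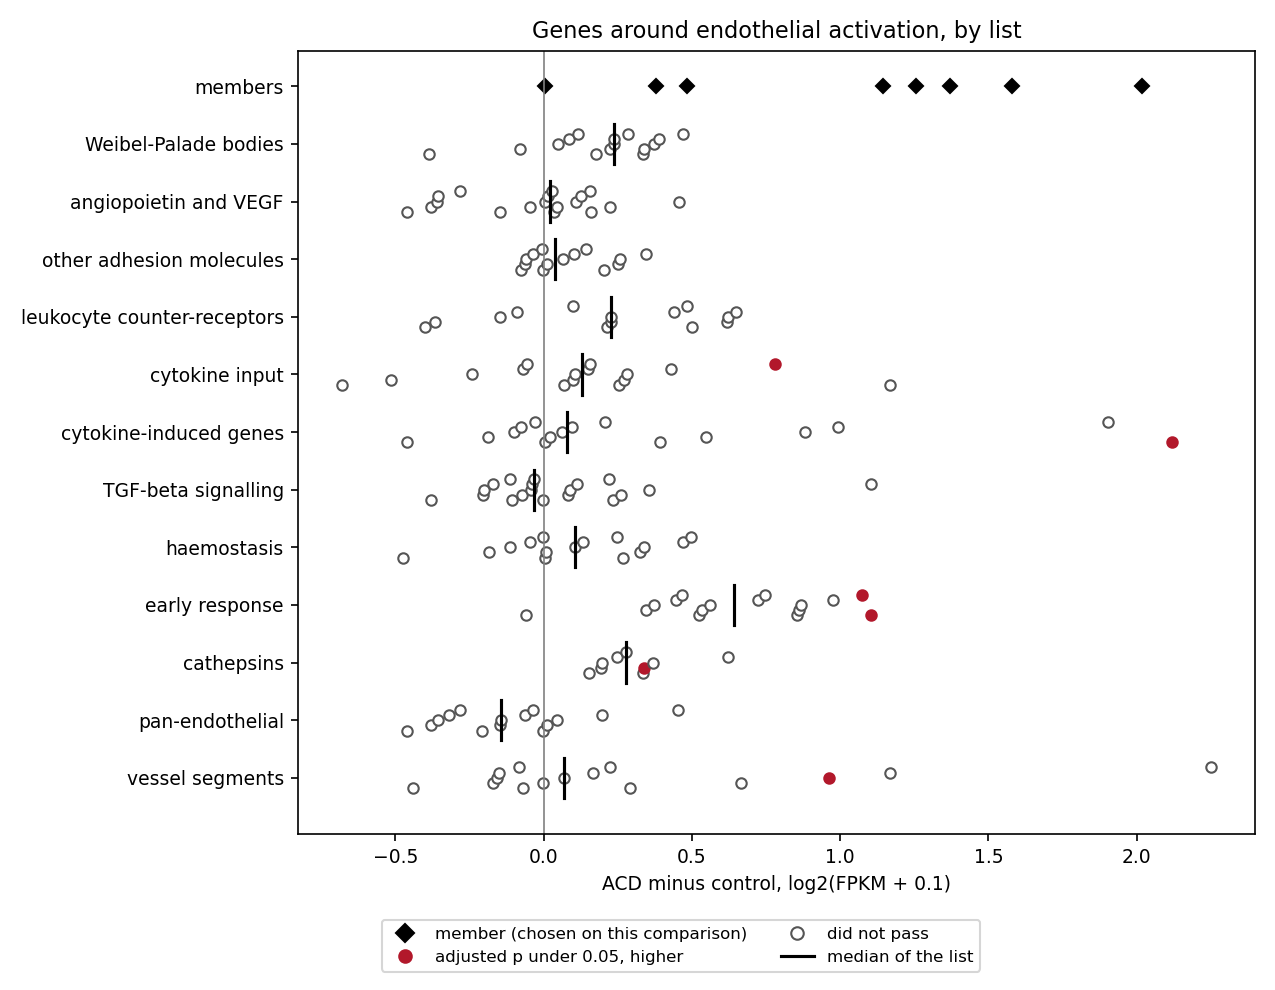
Log2 difference between ACD and control, with a pseudocount of 0.1 FPKM (x axis) for the 8 members the fit covered (diamonds) and for the tested genes of 12 lists (circles, red where higher at an adjusted p under 0.05), with the list median as a black bar. The pan-endothelial median lies at -0.14 and the early response median at 0.64, and 6 different genes are red.

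Other cells hold some of the members too, and their part in the differences was not tested. Platelets carry Vwf and P-selectin: the 10 platelet markers summed to 7.36 to 8.16 FPKM in ACD and 5.84 to 7.17 FPKM in control cords, without overlap, Gp1bb was at 0 in all 6 libraries, and 0 of 7 tested passed in limma or voom (1 higher at an unadjusted p under 0.05). Of those 7, 3 were positive, with a median of -0.04. Pf4, the most abundant, was at 3.04 ± 0.774 in ACD and 2.21 ± 1.02 in control cords (adjusted p = 0.415), and Gp9 at 0.699 ± 0.315 in ACD and 0.210 ± 0.150 in control cords (adjusted p = 0.126). Neutrophils carry Lrg1: their 10 markers summed to 112, 102 and 131 FPKM in ACD and 30.9, 118 and 29.6 FPKM in control cords. S100a9, the most abundant, was at 47.7 ± 5.69 in ACD and 26.6 ± 25.3 in control cords (adjusted p = 0.263). All 10 were positive, 0 passed in limma or voom and 2 were higher at an unadjusted p under 0.05. Control 2, with the high neutrophil sum, had 1.41 FPKM of Lrg1, and control 1, with the high Lrg1, had 30.9 FPKM of neutrophil markers. Red cell genes summed to 499 to 793 FPKM in ACD and 118 to 403 FPKM in control cords, without overlap; 0 of 6 passed in limma or voom, and 4 were higher at an unadjusted p under 0.05. Hba-a1, the most abundant, was at 336 ± 80.8 in ACD and 133 ± 80.3 in control cords (adjusted p = 0.131). Astrocyte markers summed to 959 to 1025 FPKM in ACD and 747 to 871 FPKM in controls, and 1 of 8, Gfap, rose. Microglia markers summed to 113 to 121 FPKM in ACD and 90.7 to 111 FPKM in control cords, and Tmem119 was the 1 of 9 that rose (11.4 ± 0.603 in ACD, 7.87 ± 0.996 in control cords, adjusted p = 0.0394). Neither Gfap nor Tmem119 passed after TPM scaling. At an unadjusted p under 0.05, 2 astrocyte and 4 microglia genes were higher and none lower. With voom, 1 of 7 astrocyte and 2 of 8 microglia genes were higher. Pericyte markers summed to 72.7 to 107 FPKM in ACD and 89.7 to 107 in control cords, and smooth muscle markers to 37.2 to 50.9 in ACD and 30.1 to 43.0 in control cords. Meningeal fibroblast markers summed to 63.6 to 81.9 FPKM in ACD and 40.3 to 83.6 in control cords, and monocyte and lymphocyte markers to 3.40 to 4.41 in ACD and 1.16 to 3.45 in control cords. The most abundant of each were Rgs5 at 35.7 ± 8.70 in ACD and 38.6 ± 4.82 in control cords, Myl9 at 20.8 ± 1.81 in ACD and 17.9 ± 3.29 in control cords, Igfbp2 at 34.8 ± 4.05 in ACD and 29.9 ± 9.74 in control cords, and Ly6c2 at 1.14 ± 0.228 in ACD and 0.360 ± 0.392 in control cords. No gene of these 4 lists passed in limma, while 1 monocyte or lymphocyte gene was higher and 1 pericyte gene lower with voom. At an unadjusted p under 0.05, 2 pericyte genes were lower, 1 smooth muscle and 3 fibroblast genes were higher, and 3 monocyte or lymphocyte genes were higher and 1 lower.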

How the data were processed

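Total RNA of cervical cord was sequenced in 3 ACD and 3 control mice; each library's group and number were read from its description. The authors deposited FPKM per Ensembl gene, 1 table per library; the build mm10 and the programs DESeq2 1.16.1, featureCounts 1.5.0-p3 and HISAT2 2.0.5 appear in the submitters' processing notes, without their roles. The sources used here do not give the kit, strandedness or annotation release. Symbols matched 54409 of 54532 identifiers, and gene models came from GENCODE M21 (GRCm38, as mm10).

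The test was limma 3.58.1 in R 4.3.3 (trend and robust) on log2(FPKM + 0.1) for 21369 genes averaging 0.1 FPKM or more, with Benjamini-Hochberg adjustment over them and a threshold of 0.05. On simulated data with the same groups it found nearly all of the largest changes and few of the smallest. Its false calls there exceeded the nominal rate, most of them in genes under 10 mean reads. The simulation gave every gene the same small spread beyond counting error, below that of Apold1 or Icam1 here. It therefore does not show what share of real changes was found. Multiplying FPKM by exon length and a library denominator returned whole reads, to within 0.05, for 96.9% of values above 0; these served voom, as an alternative, and the counting intervals and limits, which cover counting error only. Days of dissection and library preparation are not in the labels, so whether handling differed by group was not tested. P-values measure the spread between 3 mice a group.

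The members and all 22 lists were chosen with earlier results of these data known. Named were all members, Ctla2b, up to 4 passing genes per list, or the most abundant where none passed, and the 3 genes nearest in profile to each member above 1 FPKM; other genes were named after their values were seen. The most abundant gene of the Weibel-Palade list is not reported here. Alternatives were pseudocounts of 1 and 0.01, no filter, minima of 1 FPKM or 10 mean reads (the last added after seeing the data), TPM scaling, removal of a length and GC trend, voom, a replicate block and each library left out.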

Additional observations from a re-analysis of the deposited data

How the results depend on the processing

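The 5 members with the larger differences, with Vcam1 and Icam1, stayed higher in ACD cords under all alternatives run, and Ackr1 was positive in 11 of 15. A count of 4 members past the threshold became 2 with no filter, 2 after TPM scaling, 2 with the replicate block, 6 with voom or with the length and GC trend removed, and 1 to 3 with a library left out. Whether Vwf, Angpt2, Apold1, Lrg1 and Vcam1 were among them changed with the setting, and the members are not ranked by it. The 927 genes called (386 higher, 541 lower) became 556 (221 and 335) with no filter, 1397 (908 higher) with the length and GC trend removed, 1628 (673 and 955) with voom, 181 (86 and 95) with the replicate block, and 192 to 736 (65 to 378 higher, 127 to 358 lower) with a library left out; without ACD 3 the total was lowest. After TPM scaling 208 were higher. The share of calls that were higher was 41.6%, 22.8% after TPM scaling and 65.0% with the trend removed. A count of 5 pathway genes higher became 2 with no filter or TPM scaling and 13 with the 1 FPKM minimum. It was 11 with the trend removed or the 10-read minimum, 18 with voom (and 1 lower) and 0 with the replicate block. With a library left out it was 0 to 5, and the genes changed too. Of the 5 reported, only Ptgs2 was among those called without control 1 or without control 2. The causes were not tested. Same-numbered ACD and control libraries did not deviate together (correlations -0.07, 0.08 and 0.05 for numbers 1 to 3, across genes), so the numbers were not taken as pairs. Control 1 moved Lrg1 most, ACD 1 and ACD 3 Icam1. At 1 to 5 reads, Selp and most Sele values do not resolve a difference.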

Other observations

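Some vessel genes outside the members differed among the control cords. Control 1, the control with the highest Lrg1, also had the highest Ch25h (1.09, against 0.279 and 0.513 FPKM in controls 2 and 3), Il1r1 (1.51, against 0.786 and 0.933) and Thbd (8.76, against 3.66 and 3.44), the endothelial thrombomodulin. High values in control 1 were not confined to these genes. Its sums of endothelial markers (129, against 115 and 113 FPKM) and meningeal fibroblast markers (83.6, against 51.9 and 40.3 FPKM) were the highest of the controls. Its astrocyte (747 FPKM) and microglia (90.7 FPKM) sums were the lowest of the controls. Thbd was at 5.67, 7.14 and 7.81 FPKM in ACD cords, below control 1, and did not pass (adjusted p = 0.464). With control 1 left out, Thbd and Ch25h were both called higher in ACD cords. Lcn2, an iron-binding protein of inflamed vessels, astrocytes and neutrophils, was highest in control 2 instead, at 2.36 FPKM against 0.856 and 0.462 in controls 1 and 3, with 3.71, 7.02 and 5.15 FPKM in ACD cords (log2 difference 2.25, adjusted p = 0.0655). These genes were picked after their values were seen, and no cause was tested.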
